A study of Canis lupus familiaris with 6 samples.

Results

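Matrix metalloproteases and their inhibitors were followed through 10 genes named on a dog expression array, which are MMP2, MMP7, MMP9, MMP13, MMP14, MMP21, TIMP1, TIMP2, TIMP3 and RECK. Every probe that the array files assign to 1 of these gene names was used, which gave 10 of the 34378 names on the array and 22 of its 43603 probes. The samples were 3 arrays of a line called MDCK-pTR GFP-RasV12, grown by itself (alone), and 3 arrays of this line grown together with normal MDCK cells (mixed). MDCK is a dog kidney epithelial cell line, and the pTR GFP-RasV12 derivative carries GFP-tagged oncogenic Ras under tetracycline control. Both groups were grown on collagen-coated dishes, received tetracycline for 24 h, and were sorted for GFP before RNA was taken. All arrays therefore measured cells sorted as GFP-positive, whose purity is not stated, and no array of MDCK cells without Ras was analysed here. The treatment protocol gives 10 MDCK cells to 1 RasV12 cell in the mixed culture, whereas the source label of mixed replicate 2 gives 100 to 1. The extraction text names cells that also carry mCherry-tagged truncated β-catenin, while the titles and source labels name RasV12 cells without it. Nothing states whether the replicates were separate cultures, so p-values measure the spread between these arrays only. In such bulk RNA, fewer cells of a type and less RNA per cell cannot be told apart.

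Matrix metalloproteases are secreted or membrane-bound zinc proteases that cut collagens, laminins, other matrix proteins and cell-surface proteins. They are made as inactive precursors. TIMPs are secreted proteins that block the active site of the mature enzymes, and RECK is a membrane-anchored inhibitor. TIMP2 also takes part in the activation of the MMP2 precursor by MMP14 at the cell surface, so the balance of enzyme and inhibitor messages alone does not give the protease activity. In epithelium these enzymes are known for remodelling of the basement membrane and for invasion.

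The probes on which the results turn are shown here, each 60 bases long, 5′ to 3′, with positions in canFam3. The exon or untranslated region under a probe is not given in the sources used here. The probes for MMP13 and the first TIMP3 probe were listed over spans far longer than their sequence, as a probe that crosses an exon junction would be. The MMP21 probe on chr28:34937000-34937059, minus strand, is shown because it was the only probe for that enzyme.
MMP21 probe 1: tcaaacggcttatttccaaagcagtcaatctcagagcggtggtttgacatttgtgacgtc
The MMP13 probe was listed over chr5:28859014-28860065, plus strand, a span of 1052 bases, and is shown because it was the 1 member probe past the test's threshold.
MMP13 probe 1: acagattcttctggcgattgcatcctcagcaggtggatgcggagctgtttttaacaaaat
TIMP3 probe 1 was listed over chr10:30629505-30637057, minus strand, a span of 7553 bases, and is shown because it is the 1 probe with such a span of 4 that moved together.
TIMP3 probe 1: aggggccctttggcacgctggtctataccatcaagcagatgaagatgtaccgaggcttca
MMP9 probes 3 and 4 lay on the plus strand at chr24:33281028-33281087 and chr24:33281039-33281098, so they shared 49 bases. They differed at 1 base, C42G, counted from 1 at the 5′ end of probe 3, and capitals mark that base. They read nearly the same stretch of message and were not independent measurements.
MMP9 probe 3: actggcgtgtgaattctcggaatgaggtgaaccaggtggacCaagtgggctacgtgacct
MMP9 probe 4: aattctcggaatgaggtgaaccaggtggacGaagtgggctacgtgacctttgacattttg

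All values below come from the processed intensity that the scanner software gives each spot, in arbitrary units. For tests this intensity was taken as log2 relative to the 75th percentile of its array, which lay between 592 and 700 units. A probe entered the test if the software called it well above background throughout at least 1 group, that is, on 3 of 3 arrays. The share of probes well above background ran from 60.8 to 66.4% per array, and replicate 1 had the lowest share in either group. Each group filled a slide of its own, and an effect of the slide cannot be told apart from one of the culture in any comparison. Of 26535 probes tested, 2978 passed an adjusted p of 0.05 in limma's test, which is 11.2%. There 1519 were lower (5.72%) and 1459 higher (5.5%) in mixed culture. Scaling on spiked-in control RNA took the median difference of all tested probes to -0.17 on the log2 scale and the share of higher calls from 49.0 to 29.8%.

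Of the 22 member probes, 12 were tested, and those 12 were well above background on all 6 arrays. They came from MMP2, MMP9, MMP13, TIMP1, TIMP2 and TIMP3. MMP7, MMP14, MMP21 and RECK had no tested probe. MMP13 was the 1 member probe called of these 12, lower in mixed culture, and none was called higher. Over all tested probes 11.2% were called and 5.72% were called lower. The sample titles do not state a pairing by replicate number, and it was chosen from these same values. With arrays paired in this way, 5 member probes were called, all lower. MMP13 gave 1 of these and TIMP3 the other 4, against 10.6% of all probes called in that fit and 5.31% called lower. The differences were below 0 for 10 of the 12 probes, against 50.6% of all tested probes. The 12 probes come from 6 genes, with 4 from TIMP3 and an overlapping pair from MMP9. They are not independent, and the counts of this paragraph weigh TIMP3 most. The median difference was -0.33 on the log2 scale for the 12 probes and -0.00371 for all tested probes. At an unadjusted p under 0.05, 6 of the 12 probes passed, 4 of them probes of TIMP3, against 31.4% of all tested probes. For 5 of the 12 probes the scaled log2 signal of every mixed array lay below that of every array of cells alone, as it did for 19.4% of all tested probes, while 37.2% of those were free of overlap in either direction (17.8% with mixed higher). TIMP3 gave 3 of these 5 probes.

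**Figure D1:**
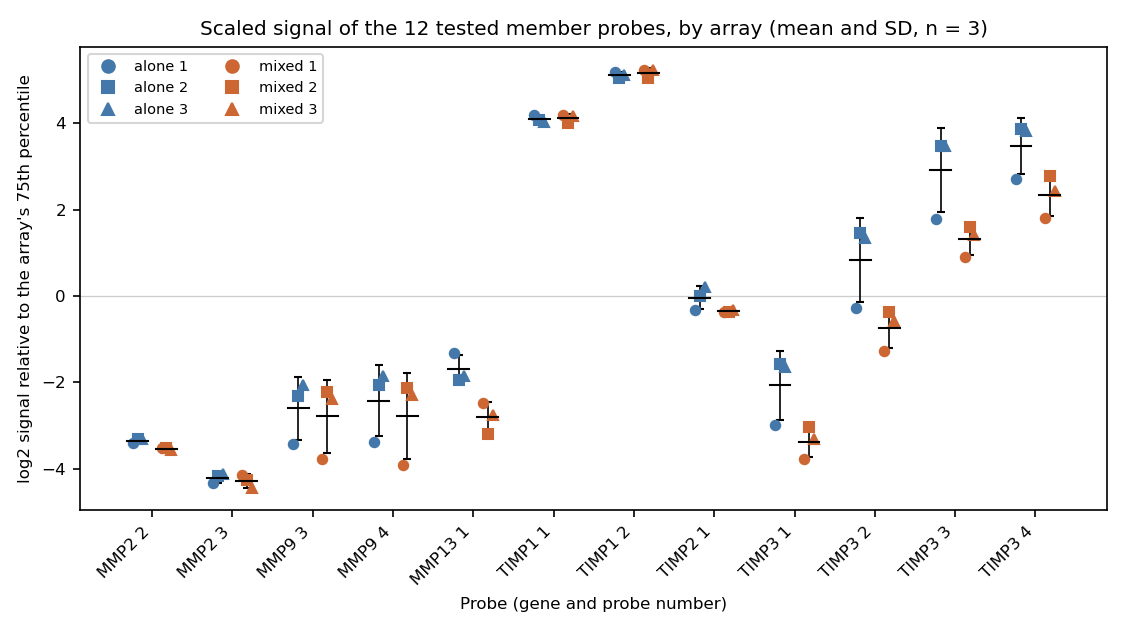
Each point is 1 array's log2 signal relative to that array's 75th percentile, for the 12 tested member probes on the x axis, with the group mean and SD (n = 3) in black. TIMP1 sat at the same height in both groups, MMP13 and TIMP3 sat lower in mixed culture, and replicate 1 lay apart for MMP9 in both groups and for TIMP3 most clearly in cells alone.

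MMP13, the collagenase that cuts fibrillar collagen, was 2.15-fold lower in the mixed cells. Its probe gave intensities of 249, 183 and 179 in cells alone and 113, 71.3 and 88.3 in mixed cells. Every mixed array was thus below every array of cells alone, and in both groups replicate 1 was the highest. The scaled log2 signal was -1.70 ± 0.34 (SD, n = 3) alone and -2.81 ± 0.36 (n = 3) mixed. The log2 difference was -1.11 (SE 0.23, 95% interval -1.65 to -0.56, adjusted p = 0.0334, limma), and it was negative in 3 of 3 numbered pairs, at -1.17, -1.26 and -0.90. The pairs agree more closely than the groups spread, and the paired fit gave an interval of -1.36 to -0.85 (adjusted p = 0.0313). The call was lost on leaving out alone replicate 2 or 3 (adjusted p = 0.0907 and 0.101) or mixed replicate 2 or 3 (0.102 and 0.114), in the methods' t-test with the same adjustment (0.110), and with no filter on dim probes (0.106), with the difference between -0.92 and -1.22 in these fits.

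The genes whose probe followed MMP13 most closely over the 6 arrays were ATOX1 (Pearson r = 0.998), LRWD1 (r = 0.996) and PIGC (r = 0.994), among 16159 tested probes with a gene symbol. Of those, 292 had an r above 0.95. The points share arrays, slide and scaling, and the figures are a description only. ATOX1 differed by -0.24 on the log2 scale (adjusted p = 0.0943, limma).

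On dog chromosome 5 the MMP13 probe is the first of 9 metalloprotease probes within 335 kb, from 8 genes that end with MMP7. MMP13 and MMP1 were the genes of this cluster with a probe well above background on all 3 arrays of cells alone, and 5 of the 8 genes had no probe well above background on any array. MMP1, the interstitial collagenase, stands on the array under a locus number that the probe description and RefSeq both name as MMP1. It is no member of the 10 genes, and its 2 probes, on the plus strand at chr5:28986140-28986199 and chr5:28979838-28979897, are shown because the larger fall lay there.
MMP1 tested probe: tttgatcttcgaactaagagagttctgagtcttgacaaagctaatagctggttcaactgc
MMP1 untested probe: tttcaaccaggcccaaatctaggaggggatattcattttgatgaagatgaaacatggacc
The tested probe gave MMP1 intensities of 117, 43.6 and 53.0 alone and 12.5, 11.6 and 6.75 mixed. The software called it well above background in every array of cells alone and in no mixed array. By the software's own test its signal was still significant over background on all 3 mixed arrays. The mixed level is taken only as a bound, and MMP1 was at least 4.74-fold higher alone. That bound sets the mean log2 signal alone against, on each mixed array, the higher of the probe's own signal and the lowest signal called well above background. The adjusted p of MMP1 was 0.0207 (limma), for a probe that entered the test only through the group in which it was bright. The other MMP1 probe read 20.8, 11.9 and 14.4 alone and 3.22, 2.91 and 4.13 mixed, was well above background on 2 arrays of cells alone, and was not tested. MMP1 lost its call without alone replicate 2 or 3 or mixed replicate 2 or 3 (adjusted p from 0.0683 to 0.0908) in the methods' t-test and with no filter on dim probes (0.0798 in both), and with normexp background correction (0.0530).

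Among the gelatinases, which cut denatured collagen and basement membrane collagen, neither MMP2 nor MMP9 passed the test. MMP2 probe 2, at chr2:60490074-60490133 on the minus strand, gave 58.7, 70.2 and 64.7 alone and 55.2, 56.5 and 50.4 mixed. Its groups did not overlap, yet the log2 difference was small at -0.19 (SE 0.07, adjusted p = 0.115, limma). MMP2 probe 3, which lay 18292 bases further along at chr2:60471722-60471781, gave 30.7, 39.2 and 36.8 alone and 35.7, 34.0 and 27.0 mixed. These groups overlapped, and the difference was -0.08 (95% interval -0.33 to 0.18). MMP2 probe 1, at chr2:60492798-60492857, was not well above background on any array, with intensities from 2.05 to 3.30. The gene thus had a dim probe beside a pair that gave signal, and the probes' own levels cannot be ranked.

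MMP9 separated the replicates and not the cultures. Probe 3 gave MMP9 intensities of 57.2, 140 and 156 alone and 46.3, 140 and 114 mixed. Probe 4 gave 59.9, 168 and 179 alone and 41.6, 150 and 120 mixed. Replicate 1 was the low array in both groups, by 2.38-fold alone and 2.78-fold mixed at probe 3, and by 2.67-fold and 3.28-fold at probe 4. The log2 difference between cultures was -0.18 (95% interval -1.40 to 1.03) at probe 3 and -0.36 (-1.75 to 1.04) at probe 4. With the replicate number as a block the intervals of MMP9 narrowed to -0.49 to 0.12 and to -0.66 to -0.05, with adjusted p of 0.315 and 0.111, so neither was called. MMP9 probes 1 and 2, which lie 5038 bases or more upstream, were not well above background on any array, and probe 5, which has no listed position, was so on alone replicate 1 and mixed replicate 2 only.

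**Figure D2:**
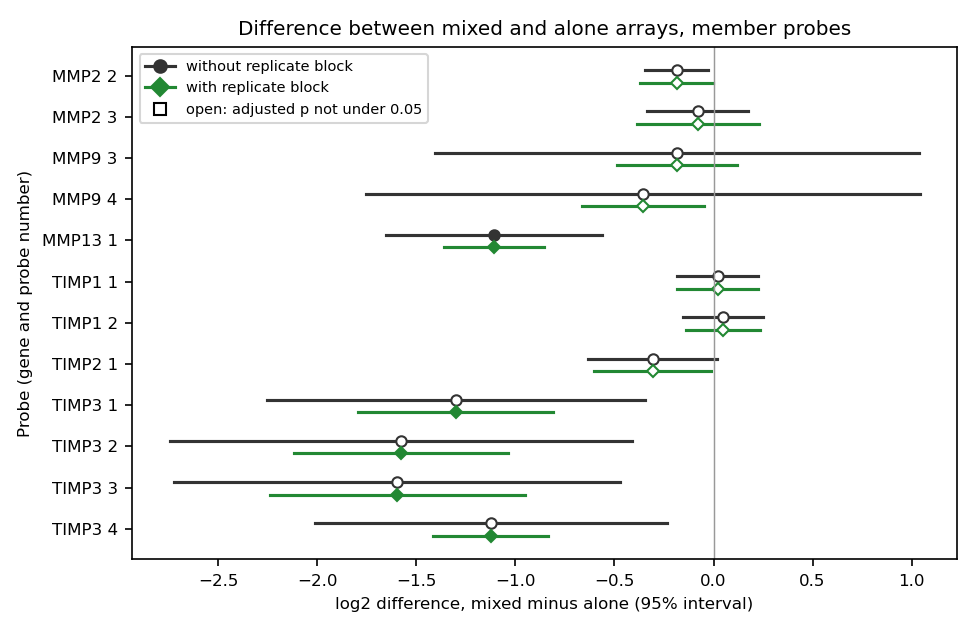
Points give the log2 difference, mixed minus alone, of each tested member probe with its 95% interval on the x axis, in the fit without (dark circles) and with (green diamonds) the replicate number as a block, and filled symbols have an adjusted p under 0.05. Pairing narrowed the intervals of MMP13, MMP9 and TIMP3, and all 4 TIMP3 probes changed sides of the threshold.

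TIMP3, the inhibitor that is held in the extracellular matrix and also blocks ADAM proteases, had 4 probes along 13.3 kb of chromosome 10, and all read lower in mixed cells, by 2.18-fold to 3.03-fold. None of them passed the unpaired test (probe 3 did with normexp background correction, adjusted p = 0.0472, limma). All of them passed with the arrays paired by replicate number, a pairing that no title states and that was chosen from these same values. Probe 1 gave TIMP3 intensities of 78.0, 234 and 207 alone and 46.5, 78.9 and 59.8 mixed. Probe 2, at chr10:30626270-30626329, gave 508, 1916 and 1633 alone and 263, 500 and 395 mixed. Probe 3, at chr10:30625811-30625870, gave 2137, 7810 and 7133 alone and 1188, 1977 and 1589 mixed. In each of these the lowest array of cells alone was replicate 1, which lay 2.60-fold to 3.22-fold below the other two. Replicate 1 was also the lowest mixed array, by at most 1.72-fold. Before scaling, mixed replicate 2 exceeded alone replicate 1 slightly at probe 1, and on the scaled signal these groups did not overlap. Probe 4, at chr10:30623756-30623815, gave 4078, 10167 and 9137 alone and 2211, 4456 and 3220 mixed, so here 1 mixed array exceeded 1 array of cells alone, before and after scaling.

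The TIMP3 differences on the log2 scale were -1.30, -1.58, -1.60 and -1.13 from probe 1 to probe 4, with SEs from 0.37 to 0.49. The adjusted p of TIMP3 lay between 0.0752 and 0.0965 without pairing and between 0.0313 and 0.0361 with the replicate number as a block (limma). The sign was negative in 3 of 3 pairs at every TIMP3 probe, and pair 1 was the smallest, at -0.77 against -1.46 and -1.67 for probe 1. Leaving out alone replicate 1 took the TIMP3 differences to between -1.50 and -2.16 and the adjusted p to between 0.00534 and 0.0202, while the share of all tested probes called rose to 26.4%. Leaving out any other array left TIMP3 uncalled. The 4 probes lie in 1 message and do not count as replicates.

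TIMP1, a broad inhibitor of secreted metalloproteases, was bright and did not move by more than the spread. Probe 1 gave TIMP1 intensities of 11319, 11785 and 10536 alone and 11473, 10406 and 10679 mixed. Probe 2 gave 22613, 23310 and 22510 alone and 23744, 21449 and 22366 mixed. The groups overlapped at both, and the log2 differences of TIMP1 were 0.02 (95% interval -0.19 to 0.23) and 0.05 (-0.16 to 0.25). Under spike-in scaling the sign turned, to -0.14 and -0.12, so no direction is given. Differences beyond about 0.25 in either direction lay outside the interval of both probes under the percentile scaling.

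TIMP2, the inhibitor that bridges MMP14 and the MMP2 precursor, had a probe listed over chr9:2524028-2532168 that gave 493, 701 and 742 alone and 489, 507 and 476 mixed. Replicates 2 and 3 of cells alone stood above the other 4 arrays, which lay together. The log2 difference of TIMP2 was -0.31 (SE 0.14, 95% interval -0.63 to 0.02, adjusted p = 0.180, limma). It was called in the fit without alone replicate 1 (adjusted p = 0.0184) and in no other. The other TIMP2 probe, at chr9:2523951-2524011 on the opposite strand, comes from an expressed sequence tag and was not well above background on any array, with intensities from 2.99 to 6.33.

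MMP21, an enzyme known from the setting of left-right body asymmetry, was not well above background on any of the 6 arrays. Its probe gave 2.95, 2.65 and 2.04 alone and 3.20, 7.68 and 7.52 mixed. In the 3 arrays of cells alone and in mixed replicate 1 the software had replaced the signal with a surrogate for values too close to background, so these 4 values have no order among themselves. On mixed replicates 2 and 3 the MMP21 signal was significant over background by the software's own test but stayed under the lowest intensity called well above background on those arrays, 12.8 and 11.8. Among the 13648 probes that were never well above background, 160 (1.17%) had a significant signal on 2 or 3 mixed arrays and none alone, and 713 (5.22%) had the reverse. With 4 of the 6 MMP21 values set by the surrogate, no difference, fold or test is given for MMP21, and 3 arrays against 3 could in any case not have gone below a p of 0.1 in an exact permutation test.

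The other untested members were near or below the same level. MMP7, matrilysin, gave 3.77, 9.33 and 13.6 alone and 3.89, 6.93 and 3.26 mixed, and was well above background on alone replicate 3 only. RECK gave 9.87, 14.8 and 20.8 alone and 8.50, 9.53 and 13.2 mixed, and was also well above background on alone replicate 3 only. Alone replicate 3 had the lowest intensity limit for that call, 9.15 units against 11.6 to 14.6 on the other arrays. Both probes of MMP14, a membrane-bound activator of the MMP2 precursor, were not well above background on any array. MMP14 probe 1 read from 2.54 to 3.82 on 5 arrays and 11.7 on mixed replicate 2, and MMP14 probe 2 read from 3.14 to 3.78 on all 6.

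**Figure D3:**
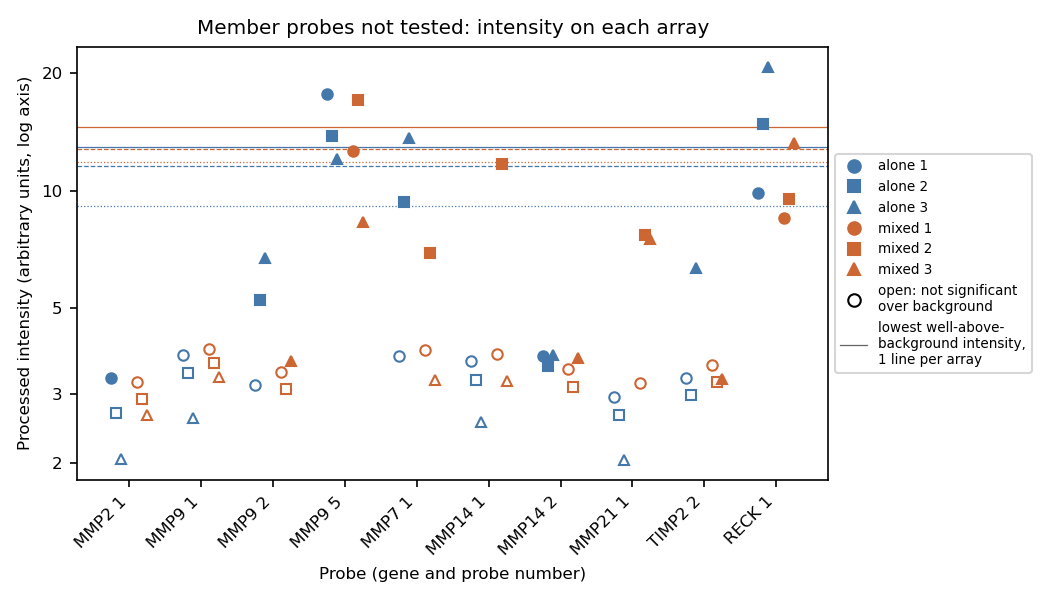
Points give the processed intensity of the 10 untested member probes on each array, on a log axis in arbitrary units, and open symbols mark signals not significant over background. The lines show the lowest intensity called well above background on each array, from 9.15 to 14.6, and the MMP21 values of mixed replicates 2 and 3 lay below their lines.

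Related genes were read in 4 lists, beside 11.2% of all tested probes called. In the list of other metalloproteases and TIMP4, 15 of 18 genes had a probe and 9 of 17 probes were tested, with a list median of -0.07. The MMP1 probe was the 1 called, as a bound, and it was tested only through the group in which it was bright. None of the list was called where all 6 arrays had to be well above background. MMP28, a protease of epithelial cells, had both probes on all 6 arrays, with log2 differences of 0.05 and -0.15 (adjusted p = 0.808 and 0.594, limma). MMP19 gave -0.20 (adjusted p = 0.175) and MMP16 gave 0.33 (0.405). MMP17 read 18.8, 18.7 and 18.2 alone and 14.9, 3.48 and 13.1 mixed. The software gave its call of well above background to each array of the alone group and to no mixed one. MMP17 thus entered the test only through the group in which it was brighter. A bound formed as for MMP1 came to 1.31-fold. The difference was not called (adjusted p = 0.257, limma), so that bound is not read as a minimum difference. Probes for 7 of the 15 genes, among them MMP3, MMP8 and MMP12, were never well above background.

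In the list of convertases that cut the precursors, cell-surface cofactors and binding partners, 4 of 23 tested probes were called, 3 lower and 1 higher. The 3 lower ones came from 2 genes. Over all tested probes 5.72% were called lower and 5.5% higher. The list median was -0.05. CD44, a hyaluronan receptor that holds MMP9 at the cell surface, differed by -0.78 (SE 0.11, adjusted p = 0.0183, limma), from 1047, 1453 and 1431 alone to 759, 732 and 669 mixed. ITGB3, an integrin chain, differed by -0.51 and -0.44 at its 2 probes and lost both calls with pairing (adjusted p = 0.0821 and 0.0657). PCSK5, a proprotein convertase, differed by 0.45 (adjusted p = 0.0377). CLDN1, a tight junction protein, gave 0.80 and was called only with pairing (adjusted p = 0.0965 without and 0.0313 with it). FURIN, another proprotein convertase, was not called at either probe.

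Of 36 tested probes for matrix and junction substrates, 7 were called lower, from 4 genes, and 2 higher, from 1 gene. Over all tested probes 5.72% were called lower and 5.5% higher. LAMA3, an epithelial laminin chain, gave 11604, 14638 and 13872 alone and 6927, 6201 and 5929 mixed, which put the mixed cells at -1.003 on the log2 scale relative to cells alone (SE 0.09, adjusted p = 0.0103, limma). LAMB3, another laminin chain, was called at none of 3 probes. COL4A1 fell by 0.52 and 0.53, and COL4A2, its partner chain in basement membrane collagen, fell by 0.55 and 0.44 at 2 of 3 tested probes. SPP1, osteopontin, rose by 0.80 and 0.83 at its 2 probes (adjusted p = 0.0125 at both). CDH1 and FN1 were called at none of their 3 and 4 tested probes. The median over the list was -0.24.

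Among 34 tested probes for transcription factors that act at metalloprotease promoters, 7 were called lower, from 5 genes, and 2 higher, from 2 genes. Over all tested probes 5.72% were called lower and 5.5% higher. The list had a median of -0.12. RUNX2, an activator of MMP13 in bone and cartilage, was called at 2 of 4 probes, with log2 differences of -0.81 and -0.74 (adjusted p = 0.0357 and 0.0160, limma). ETS1 was called at 2 of 3 probes, at -0.60 and -0.53. Members of the AP-1 family went in different directions, with FOSL1 at -0.52, FOS at 0.67 and JUND at 0.46, all called, and JUN, JUNB, FOSB and FOSL2 not called. CTNNB1 was called at 1 of 4 probes (-0.61) and STAT3 at 1 of 4 (-0.30), and both lost the call with pairing, while ETS2 gained it at 1 probe (0.50, adjusted p = 0.0446).

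**Figure D4:**
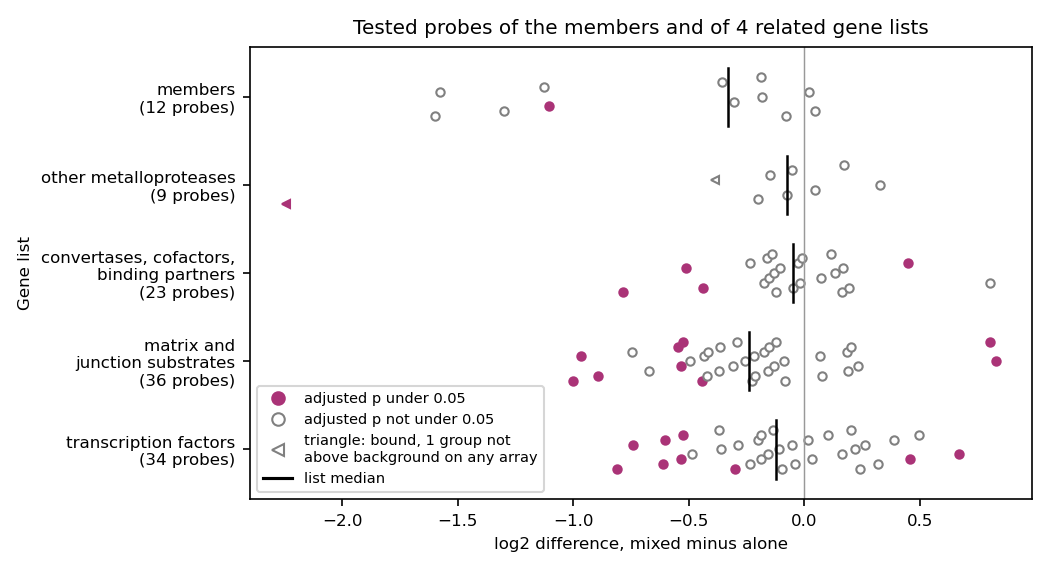
Each point is 1 tested probe's log2 difference, mixed minus alone, with filled points for an adjusted p under 0.05 and black bars for list medians. Left-pointing triangles stand for MMP1 and MMP17, drawn at the bound because no mixed array was well above background there. The 2 SPP1 probes were the highest called probes of the substrate list at 0.80 and 0.83.

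The identity of the sorted cells was read from marker lists, beside 11.2% of all tested probes called. Kidney tubule epithelium markers were well above background for all 8 genes with a probe, and 1 of 14 tested probes was called, an OCLN probe that was higher in mixed cells. No probe of the leukocyte, endothelium or fibroblast and mural lists was called among 3, 4 and 5 tested. PTPRC, CDH5, TEK, COL3A1 and PDGFRA were not well above background on any array, while PECAM1, VWF, KDR, CD14, CD79A, COL1A1, PDGFRB, ACTA2 and LUM each had at least 1 probe above it on all 6. Of 17 tested probes of Ras-MAPK output genes, 3 were called lower, EPHA2 (-0.71), FOSL1 (-0.52) and CCND1 (-0.59), and both EGR1 probes were called higher (0.67 and 0.77). With pairing CCND1 was not called (adjusted p = 0.0633), and both IER3 probes (lower, 0.0377 and 0.0409) and 1 SPRED1 probe (higher, 0.0491) were. The summed scaled signal of that list ran from 199.8 to 205.4 in cells alone and from 165.9 to 188.1 in mixed cells. That sum weighs bright probes most. The 3 brightest probes of the list were from DUSP6, whose 4 probes all had differences below 0 and none a call. SPRY2, SPRED1 and ETV5 had differences above 0 that were not called without pairing. The list median was -0.31. The sum was lower in mixed cells, as were the MMP13, MMP1 and TIMP3 signals, while the EGR1 probes were higher. Within cells alone the sum did not show the low replicate 1 of TIMP3. The list had been chosen as one that would read lower if the sorted cells included MDCK cells without Ras. Both lines are MDCK, so the tissue markers above do not separate them. The part of Ras-MAPK output, or of such MDCK cells, in the MMP13, MMP1 and TIMP3 differences was not tested.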

How the data were processed

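RNA of 6 samples was hybridised to 1-colour Agilent dog arrays. The deposited intensity values are the processed signals of Agilent Feature Extraction (CanFam3.1 grid), which the authors' scanner software had background-subtracted and detrended within each array, with dim values replaced by a surrogate. The deposited log2 table lists 26529 probes on a scale that matched log2 processed signal minus the array's 75th percentile, with offsets from -0.00104 to -0.000109 per array, and its normalization is not stated. Here outlier spots were dropped, spots of a probe averaged, and log2 values centred on the 75th percentile of 43603 probes. Probes called well above background throughout at least 1 group were fitted with limma 3.58.1 (R 4.3.3, lmFit and eBayes, two-sided, Benjamini-Hochberg, threshold 0.05). The exact permutation test set for MMP21 (scipy 1.17.1) is not read, since most of its values are surrogates. The precision rests on 3 arrays per group. No array had a saturated member probe.

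Deviations of same-numbered arrays correlated at r = 0.349, 0.162 and 0.296, against -0.329 to 0.238 for other numbers. The replicate number was therefore used as a block in an alternative fit. Alone replicate 2 deviated more closely with mixed replicate 3 (r = 0.238) than with mixed replicate 2 (0.162). The sample titles state no pairing, and the choice of this block came from these same values. The replicate number also gives the array's place on the slide. The study's methods name an unpaired two-tailed Student's test, which was run as an alternative. Others were normexp (offset 50), quantile and spike-in scaling, other filters, the deposited table, the replicate block and leaving out each array. In simulated data with 26529 probes, 82% of 2-fold and 94% of 4-fold changes were recovered with 9 false calls. The simulated noise was independent between arrays, at the spread fitted over all probes, without a replicate or slide effect. The median residual SD was 0.46 for tested member probes and 0.13 for all tested probes. The simulated shares therefore do not give the recovery for the members. Members, gene lists and tests were chosen with earlier results of these data known. All member probes are reported, and from each list genes with a called probe, at most 6 by size of difference. Others named were chosen after their values were seen. RefSeq names came from assembly UU_Cfam_GSD_1.0, none of whose coordinates are used. The values of 1 gene of the substrate list are not reported here.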

Additional observations from a re-analysis of the deposited data

How the results depend on the processing

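Probes called over the whole array numbered 950 with spike-in scaling, 12 with no filter on dim probes and 826 in the methods' t-test, and from 7 to 7335 on leaving out 1 array. Member probes called numbered 2 with normexp, 0 with no filter, 0 in the methods' t-test, 5 with the replicate block, and from 0 to 6 on leaving out 1 array. The list of other metalloproteases had 0 called with normexp, 0 with no filter, 0 where all 6 arrays had to be well above background, and from 0 to 1 on leaving out 1 array. The list of convertases and partners had 1 with spike-in scaling, 0 with no filter and from 0 to 6 on leaving out 1 array. Substrates had 0 with no filter and from 0 to 16, and transcription factors had 3 with spike-in scaling, 0 with no filter and from 0 to 15. Each count of 0 on leaving out an array came without alone replicate 2 or 3 or mixed replicate 2 or 3, where at most 24 probes of the whole array were called. Counts of member probes at an unadjusted p stand above.

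Signs turned only for probes that were never called. With normexp MMP2 probe 3 gave 0.013 and TIMP1 probe 1 gave -0.00486. With spike-in scaling the TIMP1 probes gave -0.14 and -0.12. On leaving out 1 array MMP2 probe 3 ran from -0.15 to 0.0055, MMP9 probe 3 from -0.60 to 0.31, MMP9 probe 4 from -0.83 to 0.21 and TIMP1 probe 1 from -0.014 to 0.079. MMP13, MMP2 probe 2, TIMP2 and all TIMP3 probes kept a negative sign in all 14 alternatives. Beyond MMP13 and TIMP3, whose paired values stand above, the replicate block changed no call of a member. No fit could take the slide as a block, because slide and group coincide, and that alternative has no value. The deposited table does not list the MMP21 probe, and its difference is not read under any setting, since dim probes have no usable direction at this signal over background. The causes were not tested.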
